A study of Mus musculus with 2 samples.

Results

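Intergenic transcribed loci are stretches of the genome that gave long RNA reads although no annotated gene lies over them. They were taken from 2 long-read RNA sequencing libraries of adrenal gland from 10-day-old female B6CASTF1/J mice, the F1 cross that the labels shorten to B6Cast, with no treatment named for either library. Every transcript model that the deposited tables class as intergenic was kept, which gave 3007 of 103340 models in replicate 1 and 2943 of 100240 in replicate 2, spike-in models left out. Models that overlapped by at least 1 base on the same strand were merged over both libraries, and this gave 5064 loci, of which 839 (16.6%, 95% interval 15.5 to 17.6) had reads in both libraries. The text on the libraries names animal 03 for both, while the text on the tissue names 03 for replicate 1 and 04 for replicate 2, so whether 1 or 2 animals were sequenced cannot be told from the labels. All tests below therefore compare the reads of 2 libraries, not conditions, and exact intervals cover counting error only.

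In a long-read library each read is meant to follow 1 RNA from its start to its poly(A) tail, and the read is then matched to annotated transcripts. Reads outside every annotated gene can come from unannotated noncoding genes, from transcription leaving a promoter in the opposite direction, from transcripts that run past an annotated gene end, from transcribed repeats, or from internal priming on genomic A-runs. Mouse repeats of the SINE type are short elements copied through RNA that end in an A-rich tail, and many lie between genes.

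The loci held a group of nearly uniform length, so sequences are shown first. Single-exon loci spanning 170 to 185 bases, called short loci here, numbered 880. RefSeq windows around gene starts (build GRCm38.p6, from 250 bases before to 50 after the start) covered at least 60 bases of 6 of them. The 4 below are shown because they share an exact stretch of 28 bases, printed in capitals, and each runs to the 3′ end of its locus. They are read 5′ to 3′ on the strand of the locus, and are named by the RefSeq window that covers them.

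Gm27204 window, chr9:72779460-72779643, minus strand: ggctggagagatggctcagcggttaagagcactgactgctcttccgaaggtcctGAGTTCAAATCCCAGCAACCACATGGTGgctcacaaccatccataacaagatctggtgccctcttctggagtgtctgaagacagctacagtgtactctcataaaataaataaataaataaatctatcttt
Gm40670 window, chr10:59266954-59267135, plus strand: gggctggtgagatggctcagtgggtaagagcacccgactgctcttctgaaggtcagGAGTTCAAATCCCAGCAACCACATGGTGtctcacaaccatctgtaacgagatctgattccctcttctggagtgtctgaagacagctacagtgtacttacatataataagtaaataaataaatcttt
Yif1b window, chr7:29237511-29237643, minus strand: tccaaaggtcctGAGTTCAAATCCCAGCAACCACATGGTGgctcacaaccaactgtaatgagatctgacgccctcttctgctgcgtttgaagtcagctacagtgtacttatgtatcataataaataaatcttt
Gm42116 window, chr5:93221397-93221523, plus strand: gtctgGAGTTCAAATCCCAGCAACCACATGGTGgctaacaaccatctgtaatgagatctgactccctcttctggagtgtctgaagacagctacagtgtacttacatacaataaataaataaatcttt

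The 4 loci lie on 4 chromosomes, yet over their shared part the 6 pairs were between 84.1% and 92.1% identical. The first 2 sequences cover their whole locus, 184 and 182 bases, and the other 2 lack the 5′ part. They resemble the rodent B2 family of SINE repeats, although no repeat annotation was used here. The capital stretch was present on either strand of 19 of 32851 RefSeq windows of the same length, 0.0578%. Of 345 other intergenic loci covered by such windows, 0 held it on their own strand and 1 held it on the opposite strand. The other 2 covered short loci, chr3:88553074-88553251 in the Lamtor2 window and chrX:109095196-109095365 in the Sh3bgrl window, did not hold it. The stretch was taken from the 4 loci, so their holding it is no result, and the 19 windows include theirs. Exact matching misses diverged copies, so these counts do not show that other loci lack similar sequence. Only 6 of 880 short loci could be read in this way, so nothing is said of the sequence of the rest.

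Short loci made up 18.9% of the single-exon loci. By model, 489 of 2809 single-exon intergenic models in replicate 1 (17.4%, interval 16 to 18.9) and 604 of 2674 in replicate 2 (22.6%, 21 to 24.2) fell in this length window. The same window held 3.03% and 3.92% of single-exon antisense models (498 and 495 models). It held 3.33% and 4.28% of single-exon models of the genomic class (361 and 408), which overlap a gene without matching its exons. Between 80 and 399 bases, the fullest bin of 4 bases was 176 to 179 in each class and library. The share in this window was thus several times higher among intergenic models than in either other class. The window was set on the intergenic peak after the data were seen, so the intervals are no test of this difference. The commonest lengths were 177 bases with 159 models, 176 bases with 157 and 178 bases with 124. Windows of equal width just below held 7.73% and 8.26% of the single-exon intergenic models, and those just above held 2.63% and 3.44%.

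**Figure D1:**
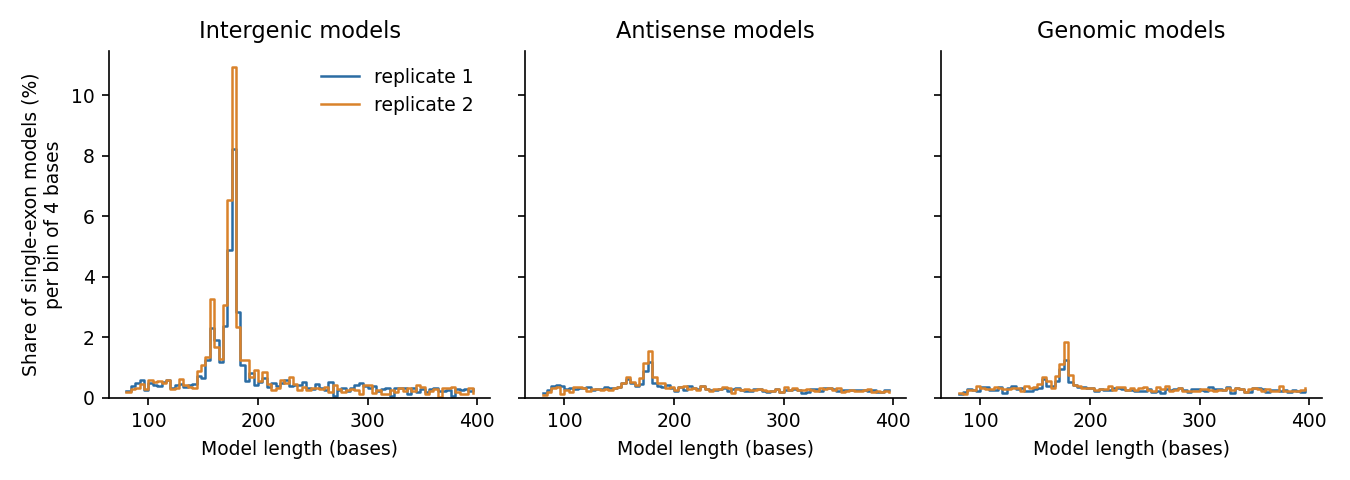
Length of single-exon models in bins of 4 bases, as a percentage of the single-exon models of each class, for intergenic, antisense and genomic-class models in each replicate. Intergenic models peak between 170 and 185 bases in both libraries, where 17.4% and 22.6% of them lie. Antisense and genomic-class models have lower peaks at the same lengths.

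Of the short loci, 206 (23.4%, interval 20.6 to 26.3) were found in both libraries, against 14.5% of other single-exon loci. At matched depth the gap varied. With 2 reads summed, 45.1% of 153 short loci and 38.9% of 465 other single-exon loci were in both. With 3 reads the shares were 80.3% of 61 and 63.5% of 159. With 4 to 9 reads they were 88.6% of 70 and 86.3% of 212. All 26 short loci with 10 or more reads were in both libraries, against 92.1% of 89 other single-exon loci. Short loci held 20.6% of all intergenic reads. They lay at a median of 6170 bases from the nearest gene, and 8 of 880 (0.91%) touched one.

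Most intergenic loci were seen once. The libraries gave 4986 and 5497 intergenic reads, and 3727 of 5064 loci (73.6%) had a single read over both. Loci with 10 or more reads numbered 122 and held 29.2% of the reads, while the 839 loci in both libraries held 51.9%. Whether a locus recurred followed its reads. It was in both libraries for 44.0% of loci with 2 reads summed, 67.9% with 3, 84.0% with 4 or 5, and 95.8% (46 of 48) with 21 or more. Antisense loci merged in the same way gave 44.3%, 68.4%, 84.5% and 98.1%, and annotated long intergenic noncoding genes gave 45.7%, 69.0%, 77.9% and 100%. At 11 to 20 reads intergenic loci stood at 93.2%, below 98.9% of antisense loci. At 6 to 10 reads 93.6% of intergenic loci, 95.1% of antisense loci and 98.5% of the lincRNA genes recurred.

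**Figure D2:**
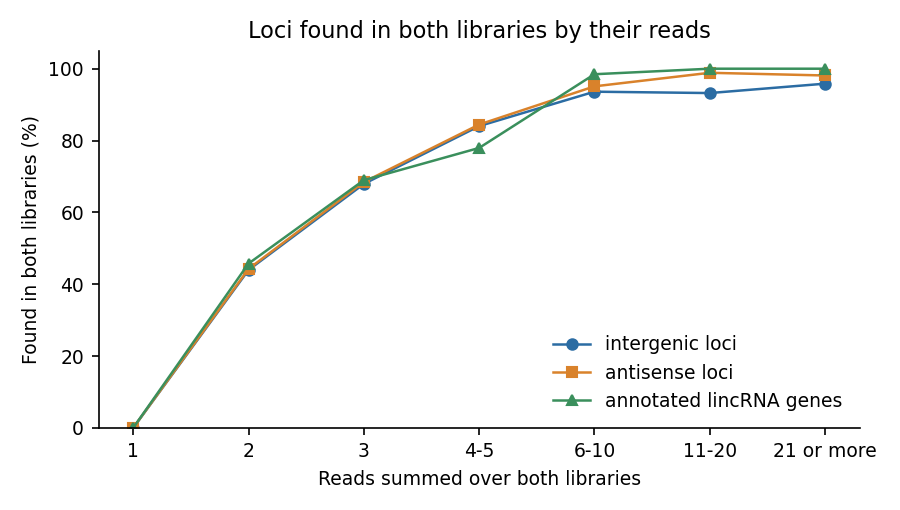
Share of features found in both libraries (%) by reads summed over both, for intergenic loci, antisense loci and annotated lincRNA genes. Lines join the bins of each set. All 3 sets are higher at 21 or more reads than at 2, with intergenic loci at 95.8% and 44.0%, and intergenic loci stand at 93.6% and 93.2% in the bins between 6 and 20 reads.

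The intergenic class took 0.841% of the reads of replicate 1 (interval 0.818 to 0.864) and 0.712% of replicate 2 (0.693 to 0.731), spike-ins left out. The share was 1.18 times higher in replicate 1 (Fisher's exact test on reads, two-sided, p = 1.7e-17). The 2 length groups went opposite ways: short loci took 0.148% and 0.165%, a ratio of replicate 1 to 2 of 0.896 (Fisher's exact test, p = 0.012), and the other loci 0.693% and 0.547%, a ratio of 1.27 (p = 3.4e-27). With models of a single read left out the shares were 0.437% and 0.419%, a ratio of 1.04 (Fisher's exact test, p = 0.11). Replicate 1 also had the larger antisense share, 6.15% against 4.22%, and the larger genomic-class share, 6.90% against 4.85%.

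Loci with single-exon models only made up 91.7% (4646 of 5064), and 418 loci (8.25%) had a spliced model. Of antisense loci 4.61% were spliced. Most spliced loci were simple, with 275 of 2 exons, 93 of 3 and 31 of 4, and only 5 had 6 or more. They spanned a median of 4177.5 bases, against 400.5 for all loci, and their 711 introns had a median length of 1595 bases (quartiles 524.5 and 4873.5). In all, 49 loci were spliced in both, 30 of them with an identical chain of introns and 38 with at least 1 intron in common. Spliced loci with 2 reads summed were in both libraries in 84.9% of 53 cases, and those with 3 reads in 65.0% of 20, against 38.9% and 63.5% of single-exon loci outside the short window. Here the merge of all overlapping models of a locus counts as the same locus, whatever its introns.

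Among spliced loci with most reads, chr8:126978047-126979382 on the minus strand had 8 reads in replicate 1 and 14 in replicate 2, with 2 exons and the same intron in both. It lies 2211 bases downstream of Gm38574 on the same strand, and that gene had no read. It overlaps the RefSeq gene Gm29688 on its own strand. The locus chr13:21812999-21820126, on the plus strand 852 bases downstream of the histone H4 gene Hist1h4m, had 6 and 9 reads and again 1 intron chain in both libraries. Histone genes of this kind are known for transcripts without a poly(A) tail, and Hist1h4m itself had 0 reads in both. The locus chr2:167847193-167847828 on the minus strand had 4 and 18 reads with an identical chain, and its 5′ end lies 14 bases from the RefSeq start of Gm32800, a gene that GENCODE M21 does not list by that symbol.

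The loci with most exons rested on few reads. chrUn_JH584304:4976-33130, on an unplaced scaffold, had 9 exons and 1 read in each library, with at least 1 shared intron. chr4:120309491-120324201 also had 9 exons, with 0 and 1 reads, 5599 bases from Foxo6os, and overlaps the RefSeq gene Gm36574 on its own strand. chr13:89499202-89539796 had 7 exons and 0 and 1 reads, and touches the 5′ end of Hapln1, a gene for a hyaluronan-binding link protein, on the opposite strand. It overlaps the RefSeq gene Gm34699 on its own strand, and its 5′ end lies in the start window of that gene. The longest locus, chr3:21820478-21958777 on the minus strand, spanned 138300 bases with 3 reads and 1 read. Only the read in replicate 2 was spliced there. No end or intron of a locus with 1 read has a second observation.

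RefSeq lists genes that GENCODE M21 lacks, and 599 loci (11.8%) overlapped a RefSeq gene on their own strand. Of these, 287 met a gene whose symbol is absent from GENCODE M21. Spliced loci did so most often, 108 of 418 (25.8%). The 5′ end of 71 loci lay inside a RefSeq start window on the same strand, and 46 of those loci were spliced. Beside Gm32800, such starts belonged to Cahm (3 and 5 reads), 2310047K21Rik (2 and 4), Gm35162 (4 and 1, with 3 exons) and Ggnbp2os (3 and 1, with 2 exons). The names ending in os denote RNA from the opposite strand of the gene named.

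Intergenic loci lay close to genes. The median distance to the nearest of 55536 annotated genes was 3135.5 bases (quartiles 753 and 9989.75), and the nearest gene was protein-coding for 62.8%, a processed pseudogene for 13.9% and a lincRNA gene for 9.21% of 5058 loci on sequences with an annotated gene. No locus lay inside or over a gene. However, 855 (16.9%) touched one, each sharing exactly 1 base with the end of the gene. Of these, 371 touched a 5′ end on the opposite strand, 304 a 3′ end on the same strand, 114 a 3′ end on the opposite strand and 66 a 5′ end on the same strand. These shared bases lie at the ends of deposited models, and where individual reads began or ended cannot be read from the files.

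The gaps between locus and gene left an empty range. Where the 5′ end of the locus faced the gene, 675 of 2714 loci (24.9%) touched it, only 9 had a gap of 1 to 500 bases, and 247 had one above 500 and up to 1000. Where the 3′ end faced the gene, 180 of 2344 (7.68%) touched it, 1 had a gap of at most 300 bases, and 112 had one above 300 and up to 500. So almost no locus began within 500 bases of a gene without reaching it. How the deposited models were joined to or kept from gene ends is not given in the sources used here, and its part in these counts was not tested.

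**Figure D3:**
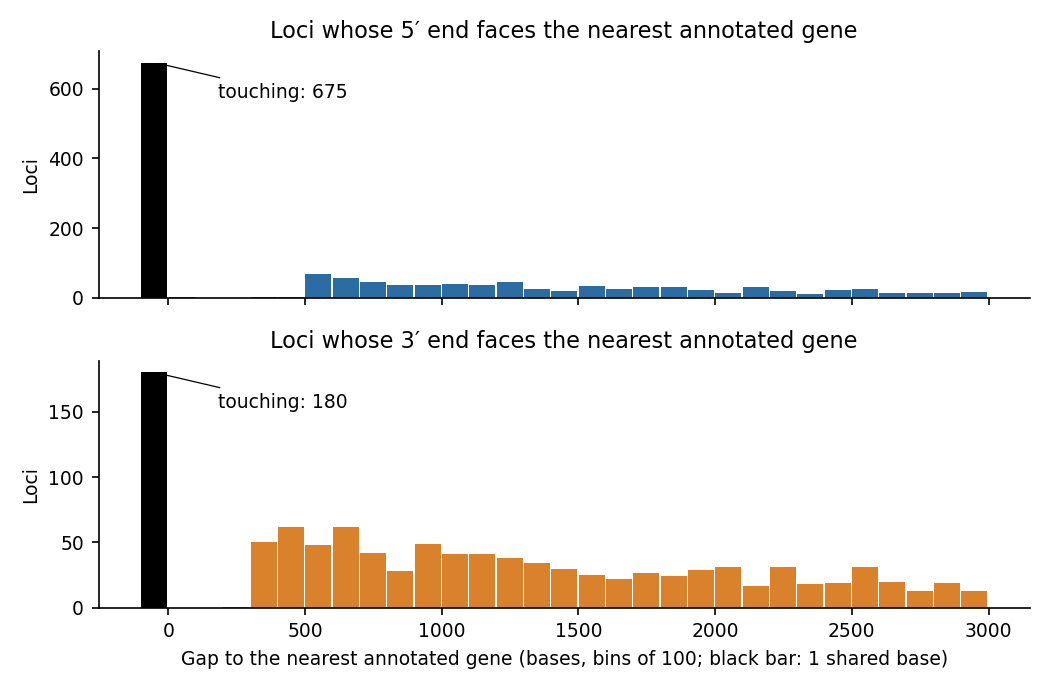
Number of loci by gap to the nearest annotated gene in bins of 100 bases up to 3000, with touching loci as a black bar left of 0, for loci whose 5′ end (upper) or 3′ end (lower) faces the gene. The black bars hold 675 and 180 loci, and gaps of 1 to 500 bases before a 5′ end hold 9.

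Loci that did not touch a gene were spread over both sides and strands. Downstream of the gene lay 1101 on the same strand and 1169 on the opposite strand, and upstream lay 995 and 938. Within 5000 bases downstream on the same strand there were 594 loci (11.7%, interval 10.9 to 12.7), and 669 on the opposite strand. With loci touching a 3′ end counted as downstream the order turned, to 898 on the same strand and 783 on the opposite strand. The genes near loci had reads more often than genes in general. Counting each gene once, 72.0% of 2011 genes nearest to a locus within 5000 bases without touching had reads (interval 70.0 to 74.0), while 49.1% of 1777 nearest genes beyond 5000 bases did. Of all annotated genes 32.7% had reads, and of protein-coding genes 68.5%. Among the protein-coding genes alone, 90.7% of the near ones and 85.4% of those beyond 5000 bases had reads.

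The 371 loci touching a 5′ end on the opposite strand differed from the other touching loci in several measures. Their gene had reads in 90.8% of cases (interval 87.4 to 93.6), with a median of 22 reads, against 74.3% (69.0 to 79.2) for loci touching a 3′ end on the same strand. It was protein-coding in 88.9%. A spliced model was present in 15.4% of them, against 2.63% of loci touching a 3′ end on the same strand. Pseudogenes were 2.96% of their genes, against 34.5% for the 3′ same-strand group. RefSeq start windows were used only for genes whose window, on the strand opposite to the locus, held the 5′ end of such a locus. This gave 276 windows, so not every gene touched in this way is included. All windows of an included gene were counted, also any that hold no such end. For 2 of them the 250 bases before the start are shown, with CG dinucleotides in capitals. These are marked because promoters rich in CG often start transcription in both directions. Another window, before a same-strand start, is shown beside them. Each is read 5′ to 3′ on the strand of the gene.

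Kpnb1, chr11:97187893-97188142, minus strand: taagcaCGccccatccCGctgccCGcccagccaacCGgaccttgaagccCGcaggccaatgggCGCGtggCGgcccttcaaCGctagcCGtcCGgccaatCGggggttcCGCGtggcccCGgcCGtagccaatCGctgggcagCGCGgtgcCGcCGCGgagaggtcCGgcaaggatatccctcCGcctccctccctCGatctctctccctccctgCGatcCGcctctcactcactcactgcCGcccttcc
P4hb, chr11:120573254-120573503, minus strand: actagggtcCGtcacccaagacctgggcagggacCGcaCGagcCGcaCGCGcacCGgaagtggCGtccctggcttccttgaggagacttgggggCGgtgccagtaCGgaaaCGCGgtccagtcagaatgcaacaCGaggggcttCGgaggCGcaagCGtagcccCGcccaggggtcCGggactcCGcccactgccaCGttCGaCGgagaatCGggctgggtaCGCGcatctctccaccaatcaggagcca
Gm32800, chr2:167847843-167848092, minus strand: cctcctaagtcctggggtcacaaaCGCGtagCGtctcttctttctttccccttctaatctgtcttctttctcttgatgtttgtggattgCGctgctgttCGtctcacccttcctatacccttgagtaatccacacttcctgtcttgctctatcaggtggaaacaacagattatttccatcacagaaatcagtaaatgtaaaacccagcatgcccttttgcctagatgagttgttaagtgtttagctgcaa

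The stretch shown before the start holds 28 CG dinucleotides at Kpnb1, 25 at P4hb and 5 at Gm32800. The medians of CG dinucleotides that follow count whole windows, which also hold bases after the start. The counts of the shown stretches are therefore not directly comparable with these medians. Over the 276 windows of genes touched at the 5′ end by an opposite-strand locus the median was 26 (quartiles 18 and 33), against 18 (8 and 27) over 16052 windows of genes with reads and 7 (3 and 20) over all windows. Genes with a window that holds the 5′ end of a same-strand locus gave 85 windows, with a median of 8 (4 and 32). All windows of such a gene were counted, also any that hold no such end. CG reads the same on both strands, so the counts hold for either direction. Kpnb1 encodes importin beta, which carries proteins into the nucleus, and had 77 and 70 reads. The locus chr11:97187881-97189551 on its other strand had 6 and 11, and begins 11 bases from the RefSeq start. P4hb encodes a protein disulfide isomerase of the endoplasmic reticulum and had 297 and 353 reads, and its locus chr11:120573253-120573758 had 2 and 9 and begins at the start itself.

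The touched starts with most opposite-strand reads belonged to other genes. The locus at Lgals4, the gene of galectin-4, had 15 and 39 reads, and the gene had 1 and 18. The locus at Bicra had 12 and 29 reads while the gene had 2 and 3. In both cases more reads, not scaled by length, fell on the locus than on the gene in both libraries. At Prep (6 and 9), Sept7 (3 and 8) and Capzb (3 and 6) the gene had more in both. At Ddx6, the gene of an RNA helicase with 81 and 86 reads, the locus had 8 and 0, all in replicate 1.

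The 10 loci with most reads held 8.23% of the intergenic reads, 286 in replicate 1 and 577 in replicate 2. None was spliced, 4 were short, 4 touched a gene and 2 did neither. The largest, chr12:24635618-24638669 on the minus strand, had 61 and 120 reads and touches the 3′ end of the processed pseudogene Gm6969, which had 33 and 12. It merges 2 unlike models. That of replicate 1 spans only 24638003-24638112 and does not reach the gene, while that of replicate 2 spans the whole locus and touches it. The 4 short loci were chr7:126643199-126643377 with 42 and 71 reads, chr15:103619061-103619240 with 40 and 56, chr7:34182937-34183114 with 25 and 49, and chr2:50017465-50017640 with 26 and 39. All 4 were higher in replicate 2, whose total without spike-ins was also higher. The nearest genes of these short loci were 2510046G10Rik, Gm49272, Pdcd2l and Lypd6, at 5166, 30552, 1385 and 48789 bases. The locus chr7:28187294-28189071 had 44 and 35 reads and touches the 3′ end of Dyrk1b, a protein kinase gene, on the opposite strand. The locus chr7:126099724-126099929 had 20 and 42 reads and spans 206 bases, just above the length window, 1786 bases from the exportin gene Xpo6.

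A few loci lay far from any gene. The farthest, chr2:123746732-123748449, was 341520 bases upstream of the semaphorin gene Sema6d and had 1 read and 0. The next, chr2:43195685-43196518, had 3 exons with 1 and 3 reads at 321946 bases. The third, chr6:11263440-11263608, spans 169 bases, 1 below the short window, and had 6 and 21 reads at 283802 bases. On 6 loci no distance could be given, because their sequence carries no annotated gene. One of them, on the scaffold Un_GL456382, had 24 and 33 reads.

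For the libraries as a whole, the deposited tables held 606677 and 788654 reads, of which 13619 and 16617 were spike-ins and 92.8% and 94.9% of the rest lay on annotated genes. The markers of adrenal cortex, 8 genes such as the steroid enzyme Cyp11a1, summed to 17094 and 20925 CPM, which are reads scaled to the library total without spike-ins, and the 7 of chromaffin cells to 4924 and 5461, with none at 0. Markers of neighbouring tissue differed: the 8 of kidney summed to 5.06 and 1161 CPM (3 and 896 reads, with 7 at 0 in replicate 1), the 7 of liver to 8249 and 1291, the 7 of striated muscle to 10601 and 3416, and the 5 of fat to 9186 and 13856. In bulk tissue, fewer cells of a type and less RNA per cell cannot be told apart. The part of this difference in the loci below was not tested.

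Reads of each feature were set against the library totals by an exact binomial test (two-sided) and adjusted by Benjamini-Hochberg over 11601 features with 10 or more reads. A feature was called at an adjusted p under 0.05 and at least 2-fold. Of all features 4.29% were called, 3.14% higher in replicate 1 and 1.16% higher in replicate 2. Among the 122 intergenic loci 18 (14.8%) were called, 13 higher in replicate 1 and 5 in replicate 2, and 28 had an unadjusted p under 0.05. Annotated genes stood at 3.88%, antisense loci at 6.21% and other unannotated loci at 37.2%. With edgeR's negative binomial exact test, which allows for spread beyond counting by a common dispersion of 0.0713, 7 intergenic loci were called, all among the 18, and 1.26% of all features were. Of 26 short loci 0 were called by the binomial test and 0 by edgeR, and 1 had an unadjusted p under 0.05. By position, 9 of 37 touching loci and 9 of 84 at a distance were called, and 1 tested locus had no gene on its sequence.

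**Figure D4:**
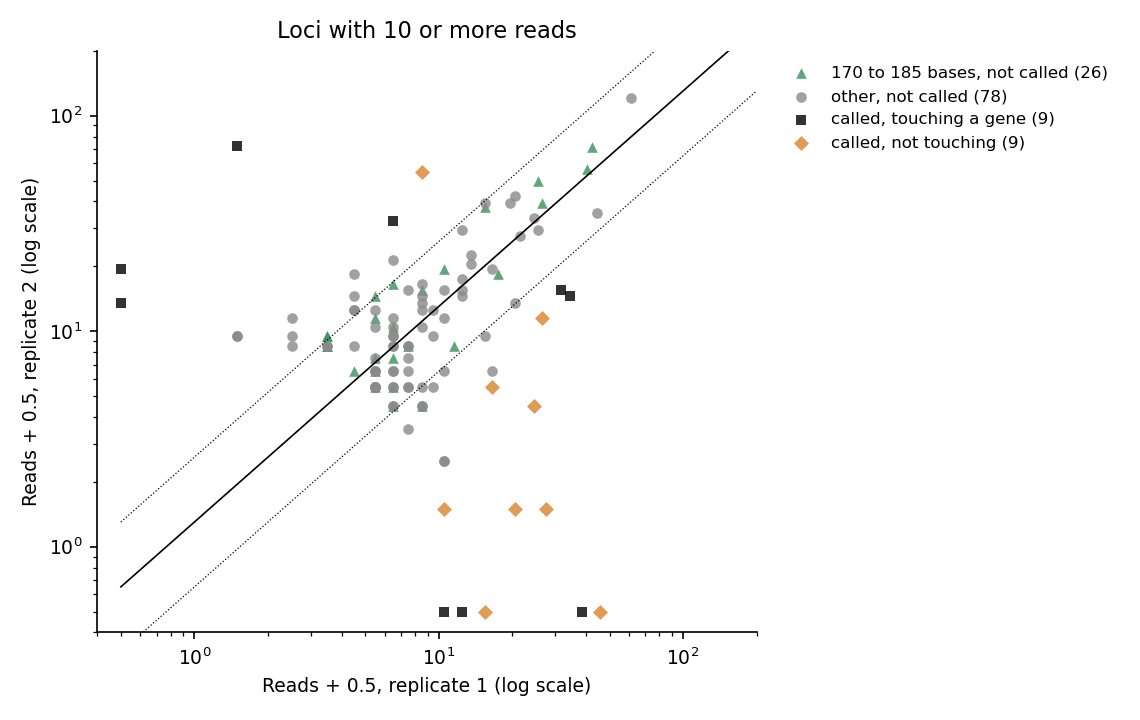
Reads + 0.5 in replicate 1 and replicate 2 (log scales) of the 122 loci with 10 or more reads. The solid line is the ratio of library totals and the dotted lines are 2-fold from it. The 26 short loci carry no call, and 18 other loci do.

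The 9 called loci that touch a gene all lie at its 3′ end on the same strand, and 6 of the genes are processed pseudogenes, which are reverse-transcribed copies of other genes. The locus chr12:10898572-10898986 had 1 and 72 reads (55.3-fold higher in replicate 2, interval 9.62 to 2215, adjusted p = 9.2e-15), and its gene Pgk1-rs7, a copy of a phosphoglycerate kinase gene, had 44 and 15. The locus and the gene were each called, in opposite directions, and the reads of both summed to 45 and 87 (adjusted p = 0.23). The locus chr17:5816057-5816200 had 38 and 0 reads, 16.5-fold higher in replicate 1 against a floor of 3 counts (lower interval limit 12.8, adjusted p = 1.6e-12). Gm10231, the pseudogene it touches, had 55 and 169, and the sums were 93 and 169. At Gm9755 the locus had 31 and 15 reads, the gene 4 and 27, and the sums 35 and 42. At the 3 other pseudogenes, Gm15432, Gm5537 and Gm10108, the locus was at 0 in one library. edgeR kept the calls at Pgk1-rs7, Gm10231 and Gm15432 and lost those at Gm9755, Gm5537 and Gm10108. Reads of near-identical copies can be split by mapping, so the counts of these pseudogenes are uncertain.

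The other 3 touched genes are protein-coding. The locus chr15:85802819-85806972 at Ppara, a nuclear receptor gene of fatty acid metabolism, had 0 and 13 reads. This was 3.33-fold higher in replicate 2 against a floor of 3 counts (lower interval limit 2.34, adjusted p = 0.017). Ppara itself had 36 and 16, and the sums were 36 and 29. The RefSeq span of Ppara overlaps this locus on the same strand by at least 1 base. The locus chr8:128503363-128505473 at Nrp1, the gene of neuropilin 1, had 34 and 14 reads, 3.16-fold higher in replicate 1 (interval 1.65 to 6.38, adjusted p = 0.0045), and Nrp1 had 101 and 92. Their sums of 135 and 106 differed with an adjusted p of 0.0024 but by less than 2-fold. The locus at Gm7075 had 6 and 32 reads and the gene 12 and 6. edgeR called none of these 3 loci, with adjusted p of 0.15 at Ppara, 0.83 at Nrp1 and 0.61 at Gm7075.

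In 7 of these 9 cases the locus and its gene were higher, per library total, in different libraries. Both were called in only 4 of them, and the 7 include Gm15432, with 18 reads in each library. Each of the 26 loci with 10 or more reads that touch a gene on the same strand was therefore also summed with its gene, an alternative chosen after seeing the data. Over these 26 the count of different libraries was 16, which takes in genes with no read in either library. By the binomial test 0 of the 26 sums were called, 5 had an unadjusted p under 0.05, and all 9 calls were lost in this way. With the touching loci given to their genes, 9 of the remaining 96 loci were called, against 4.19% of all features.

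**Figure D5:**
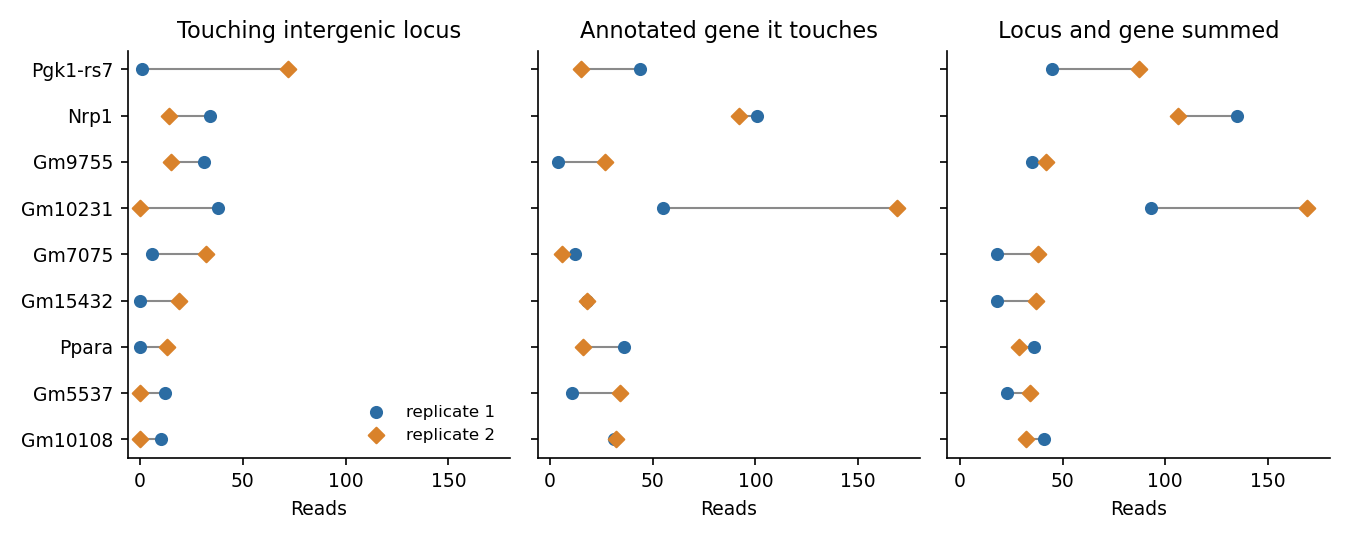
Reads in replicate 1 (circles) and replicate 2 (diamonds) at the 9 called touching loci, for the locus (left), the annotated gene it touches (middle) and both summed (right), with lines joining the replicates. At Pgk1-rs7 the locus had 1 and 72 reads, the gene 44 and 15, and the sum 45 and 87, and no sum was called.

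Of the 9 called loci that do not touch a gene, 8 were higher in replicate 1. The locus chr11:100459057-100461668 had 45 and 0 reads, 19.5-fold higher against a floor of 3 counts (lower interval limit 15.2, adjusted p = 5.3e-15). It lies 946 bases from the GENCODE end of Klhl11, a gene on the opposite strand that had 2 and 4. The RefSeq span of Klhl11 overlaps the locus on that opposite strand. The 45 reads were the highest count in replicate 1 among the called loci, and edgeR also called the locus.

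A pair of loci lay at Rtl1 on chromosome 12, an imprinted gene derived from a retrotransposon, in the domain that also holds Meg3. The locus chr12:109581014-109582299 on the minus strand had 27 reads and 1 (35.1-fold, interval 5.79 to 1439, adjusted p = 1.5e-07). The other, chr12:109600821-109603057, had 15 and 0 (6.51-fold against a floor of 3 counts, lower interval limit 4.67, adjusted p = 1.3e-04). The second lies 491 bases upstream of the GENCODE span of Rtl1 on its strand, and the RefSeq span of Rtl1 overlaps both loci. Annotated Rtl1 had 3 and 0 reads, so gene and loci had nearly all their reads in replicate 1. edgeR called both loci.

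Another 3 loci had a gene of known function nearby. The locus chr19:4061501-4066103, 1932 bases upstream of the glutathione transferase gene Gstp3 on its strand, had 24 and 4 reads (7.81-fold, interval 2.68 to 31.0, adjusted p = 2.5e-04), and Gstp3, with 15 reads and 1, was called the same way. The locus chr11:86811826-86814569, upstream of the helicase gene Dhx40, had 20 reads and 1 (26-fold, interval 4.16 to 1079, adjusted p = 2.9e-05), and Dhx40 had 11 in each. The locus chr13:55184770-55189155, 16011 bases downstream of the growth factor receptor gene Fgfr4, had 8 and 54 reads (5.19-fold higher in replicate 2, interval 2.45 to 12.6, adjusted p = 1.9e-05). Fgfr4 had 13 and 25 and was not called. edgeR kept the Dhx40 locus and lost those near Gstp3 and Fgfr4. The remaining 3 called loci lay near Ssh1 (16 and 5 reads), near Pde6a (10 and 1) and on the Y chromosome, and edgeR called none of them.

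The mice were female, yet 26 loci were placed on the Y chromosome, with 67 and 41 reads, and 10 were in both libraries. The spliced locus chrY:43918756-43923547 had 26 and 11 of them (3.08-fold, interval 1.47 to 6.90, adjusted p = 0.022). Of 1570 annotated Y genes 2 had reads, 2 and 7 in all, and Ddx3y, Uty, Kdm5d and Eif2s3y had 0 in both libraries. Copies of such sequence elsewhere in the genome were not searched.

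Some genes that mark this tissue had a locus beside them, mostly with few reads. Of the 8 cortex markers 2 were the nearest gene of a locus, of 7 chromaffin markers 4, of 5 fat markers 2, of 7 liver markers 1, and of 8 kidney and 7 muscle markers none. Of all protein-coding genes with reads 15.8% were, and the lists are too short to compare with that share. At Cyp11b2, the aldosterone synthase gene with 125 and 117 reads, the locus chr15:74849741-74851010 touches the 3′ end on the same strand and had 7 and 6 reads, with no call. Loci near the catecholamine enzyme genes Dbh (1 and 1 reads) and Th (0 and 1) and near the granin gene Chgb (1 and 0) had at most 1 read a library. Near the steroid enzyme gene Hsd3b1 there were 0 and 2. Of 12 listed imprinted genes, a list without Rtl1, 1 was the nearest gene of a locus. This was Meg3, with 1 read and 0, and of 8 noncoding host genes Malat1 and Snhg12 were, with 0 and 1 each.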

How the data were processed

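Counts are whole reads per transcript model, deposited by the authors without normalization and listing only models with at least 1 read. Per the file headers and deposited notes, the models were made with TALON on mm10 with GENCODE M21, each library alone. Model coordinates, exon numbers and lengths (other units) come from the deposited annotations. The aligner, platform and versions were not given in the sources used here. Gene spans were taken from annotated transcript lines, because deposited gene lines differed from them for 16110 and 16175 of 55536 genes. Loci were merged, matched to the nearest gene and tested with Python 3.11.15, pandas 2.3.3, NumPy 2.4.6 and SciPy 1.17.1, with a pseudocount of 0.5 reads for ratios. Intervals are exact (Clopper-Pearson) at 95%. edgeR 4.0.16 in R 4.3.3 gave TMM factors and the negative binomial test, and Matplotlib 3.10.9 the figures. The tests were tried on simulated data. At these depths 1 read is 1.69 CPM in replicate 1 and 1.30 in replicate 2. RefSeq tables (GRCm38.p6) gave windows and gene spans. Named loci are the 10 with most reads in both libraries, the 5 spliced with most reads, the 10 largest called folds each way, the 5 with most exons, the 5 longest and the 3 farthest. The length window, touched starts, start windows and Y loci were chosen after their values were seen. Members and lists were chosen with earlier results of these data known. Some loci and genes that these rules name are not reported here.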

Additional observations from a re-analysis of the deposited data

How the results depend on the processing

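Of 51 alternatives to the main results 27 left the value close to it. Only the share of reads had a direction that could be labelled reversed, and it was not. The order of the downstream strands turned with touching loci counted, as given above. The 18 called loci (4.29% of all features called) became 7 with the negative binomial test (1.26%) and 9 with touching loci added to genes (4.19%). The 1.18-fold share became 1.04 with models of at least 2 reads. With models of at least 2 reads or 5 reads there were 1020.0 or 192 loci, 263 or 82 in both libraries, 96.0% or 96.4% single-exon, and a median distance of 2131.5 or 1522 bases. Loci found in both had 89.7% single-exon, a median distance of 2177 bases and 10.4% downstream on the same strand within 5000 bases. With 1 library left out the ranges were 2919 to 2992 loci, 90.8% to 93.4% single-exon, 3023 to 3128 bases and 10.8% to 12.6%. The distance was 5766 bases to protein-coding genes, 5318.5 to genes with reads, 3432.5 to deposited gene lines and 4679 with touching loci left out, and the downstream share 8.96%, 9.25% and, with touching loci counted, 17.8%. The gene lines, touching loci and summed genes were alternatives chosen after seeing the data. The cause of these moves was not tested beyond the fewer models or genes each setting keeps. A length window 5 bases wider on each side gave 22.7% of short loci in both, and one shorter by 4 and 5 bases gave 25%. No paired analysis was possible because there is 1 group. Sequence at model ends and introns was not run, since no genome was used. Depth limits the 3727 loci with 1 read.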
